A study of Oncorhynchus tshawytscha with 15 samples.

Results

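The step between the highest 2 exposure temperatures in juvenile Chinook salmon was examined by comparing gill RNA from fish exposed to 25° directly with gill RNA from fish exposed to 21°. The comparison used 6 of the 15 libraries of the study, 3 at 25° and 3 at 21°, and left out the 12° control group. It covered the contigs (assembled stretches of transcript) that reached 10 reads in 3 or more of these 6 libraries, which were 136052 of the 183740 contigs in the table. The fish were of the fall run from the Merced River Hatchery, 5 months post hatch, and were reared at 12°. The 25° group was held at 25° for 3 hr and the 21° group at 21° for 3 hr, and both then had 1 hr of recovery at 12° before the gill arch was sampled. RNA from 11 fish was pooled for each library, so that 33 fish stood behind each temperature. Pools hold no value for single fish, and p-values measure the spread between pools. The study's text says that a sizeable minority of the fish at 25° stopped responding or died before the end and were sampled at once, so that the 25° pools mix fish with a full and with a shortened exposure and recovery. How many such fish each pool held is not given in the sources used here. The comparison asks what changes in the gill over the last step of a series whose upper end some fish did not survive.

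The gill is the organ of gas exchange in fish and also carries much of their ion transport, and its thin epithelium stands in direct contact with the water. When cells are heated, proteins unfold, and heat shock transcription factors turn on genes for chaperones, the proteins that hold and refold other proteins. At higher heat, genes for protein degradation, cell death, and inflammation are typically turned on as well, while much of the ordinary transcription falls. Contigs are identified by numbers alone, so that none of these functions can be tied to a contig here, and the labelled tissue was not checked against marker genes. The contigs are therefore described by number, length, level, and behaviour over the 5 temperatures. Deposited names have 2 prefixes, and those with the prefix denovo are written here as denovo_contig with their number.

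Total reads per library were 60589065 to 64615993 at 25°, against 63021529 to 77444684 at 21°, so the libraries at 25° were on average the shallower. The ranges overlapped (two-sided exact permutation test, p = 0.2, n = 3 pools each). Levels are given as CPM, reads per 1000000 after TMM scaling (a scaling that centres the bulk of contigs on no change), and compare the same contig between libraries. With 3 reads as the floor, the smallest level taken as measured was 0.0562 to 0.0587 CPM in a library at 25° and 0.0358 to 0.0466 CPM in a library at 21°, which covers counting error only. The filter let 9963 contigs in with exactly 3 libraries at 10 reads or more, while 9177 contigs with exactly 2 such libraries stayed out. The common biological coefficient of variation, edgeR's estimate of the spread between pools, was 0.252 at 25° and 0.255 at 21°.

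Of the 136052 contigs, 10063 were higher at 25° than at 21° and 5352 were lower, called where the fold exceeded 2 and the p-value from edgeR's quasi-likelihood test, adjusted by Benjamini-Hochberg, was under 0.01. SE below stands for the standard error of a log2 fold change. That is 7.4% of the tested contigs upregulated and 3.93% downregulated. In all 10063 and all 5352, the 3 pools at 25° lay beyond the 3 pools at 21°. Over all tested contigs, 22.2% had all 3 pools at 25° above all 3 at 21°, and 22.6% had all 3 below. The median of the upregulated contigs was a log2 fold change of 1.86, or 3.63-fold, and that of the downregulated contigs was -1.48, or 2.79-fold lower. Large changes were mostly rises. More than 4-fold changes numbered 4507 up and 1265 down, and more than 10-fold changes 1342 up and 273 down. More than 100-fold, the fit gave 64 up and 33 down, and these include contigs with no read in the other group, for which the fitted size is not a measurement.

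**Figure D1:**
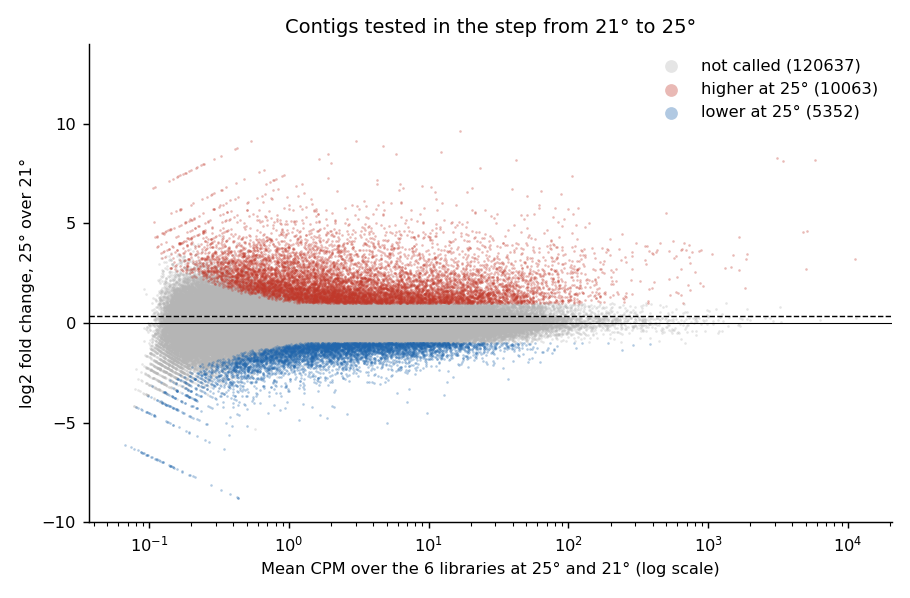
Each point is a contig tested in the step, with its mean CPM over the 6 libraries on a log axis and its log2 fold change, 25° over 21°, on the other. The 10063 red points are contigs past the threshold and higher at 25°, the 5352 blue points are lower, and the dashed line marks where no change would lie if libraries were scaled by their totals.

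The balance between rises and falls rests on the scaling. Scaled by library totals in place of TMM, 6574 contigs were upregulated and 12694 downregulated, 4.83% and 9.33% of those tested. The upregulated share of calls was then 34.1%, against 65.3% with TMM. The median log2 fold change over all tested contigs was 0.0020 with TMM, while library totals gave -0.33, and changes below are relative to the TMM centre. All 6574 rises and all 5352 falls that the stricter scaling for each direction gave were called by both, and 0 contigs were called in opposite directions. The scalings differ by a nearly constant shift, too small to turn a call, so this agreement was largely built in. The number of falls was lower whichever pool was left out, in fits with fewer pools. Without 21° replicates 1, 2, and 3 in turn it was 3030, 3209, and 5032. Without 25° replicates 1, 2, and 3 in turn it was 3680, 3902, and 4861. RNA was taken from whole gill tissue, where fewer cells of a type and less RNA per cell cannot be told apart.

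Reads became concentrated on fewer contigs at 25°. In each library, its 10 leading contigs held 8.25%, 8.87%, and 6.72% of its reads in replicates 1 to 3 at 25°, against 3.70%, 3.77%, and 3.76% at 21°. The mean was 7.95% ± 1.11 at 25° and 3.75% ± 0.037 at 21° (SD, n = 3 pools each), and every pool at 25° lay above every pool at 21° (exact permutation test, two-sided, p = 0.1, below which no comparison of 3 pools with 3 can go). The number of contigs that together held 50% of the reads was 3364 ± 321 at 25° and 5768 ± 354 at 21° (SD, n = 3 each, exact permutation p = 0.1). The 9 libraries at 12°, 15°, and 18° needed 5262 to 6107 contigs. Fewer contigs reached 10 reads, 125114 to 129606 per library at 25°, against 130524 to 142543 at 21°, and these ranges did not overlap (exact permutation p = 0.1), although the lower totals at 25° move the same way. The mean difference was -8989 contigs, and -5672 without 21° replicate 3. At 15°, replicates 2 and 3 had 60429120 and 58654252 total reads, fewer than any pool at 25°. In them 130426 and 136420 contigs reached 10 reads. The part of depth in the difference between 25° and 21° was not tested. Contigs with any read numbered 168340 ± 3376 at 25° and 170271 ± 1576 at 21° (SD, n = 3 each), with overlapping pools (exact permutation p = 0.5), and the difference of -1931 was -89.3 without 25° replicate 2.

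The contigs upregulated in the step held 28.0%, 27.3%, and 22.7% of the reads in replicates 1 to 3 at 25°, against 6.33%, 6.55%, and 6.30% at 21°. In the 9 libraries at lower temperatures, which had no part in choosing them, these contigs held 4.20% to 4.80%. The contigs downregulated in the step held 1.06%, 1.15%, and 1.35% of the reads at 25°, against 3.79%, 3.82%, and 3.72% at 21°, and 3.88% to 4.20% in the 9 libraries at lower temperatures. Both sets were chosen on the 25° and 21° libraries, so the difference between those groups describes the choice. The gain in reads of the upregulated contigs was far larger than the loss of the downregulated ones, so the balance came from contigs that were not called.

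**Figure D2:**
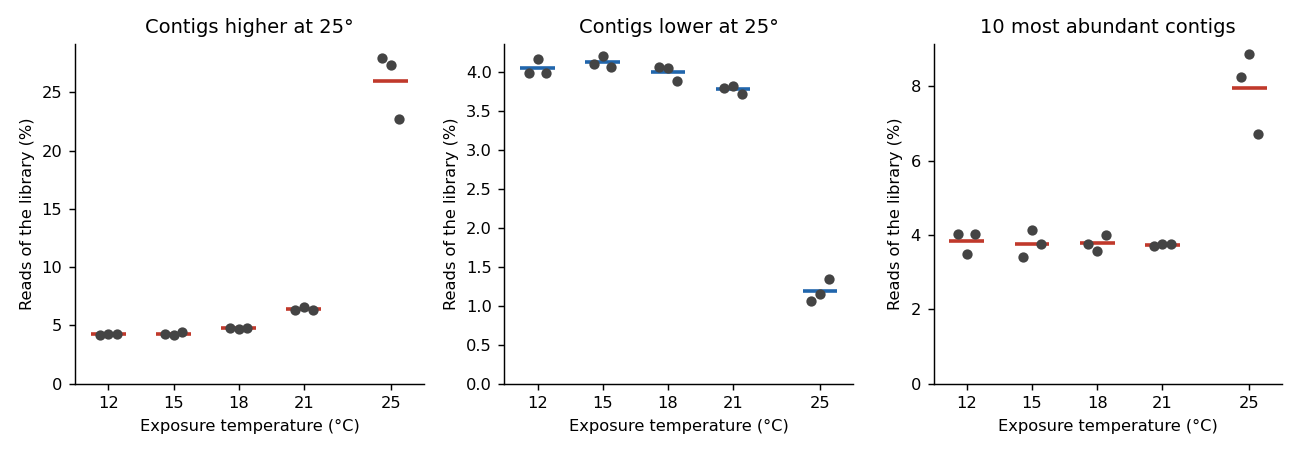
Percent of a library's reads on the contigs higher at 25° than at 21°, on the contigs lower at 25°, and on the library's own 10 most abundant contigs, by exposure temperature. Points are the 3 pools of a temperature in the order of their replicate numbers and lines are their means, and the 25° pools sit apart from all cooler pools in every panel.

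A handful of contigs, chosen for the size of their rise, carried a part of this gain. Most of the gain lay on other upregulated contigs. The 6 with the largest rise in CPM held 5.93%, 6.18%, and 4.38% of all reads in replicates 1 to 3 at 25°, against 0.449%, 0.467%, and 0.436% at 21°. The largest was denovo_contig_70413, 955 bp long, with 1043935, 1213681, and 886203 reads in replicates 1 to 3 at 25°, against 141075, 175404, and 169708 reads at 21°. It averaged 20168 ± 3451 CPM at 25° and 2159.7 ± 119 CPM at 21° (SD, n = 3 each), a log2 fold change of 3.23 (SE 0.20, edgeR adjusted p = 1.83e-06). This contig was already abundant at lower temperatures, at 1299.9 ± 41.5 CPM at 12°, 1261 ± 18.6 at 15°, and 1392 ± 40.0 at 18° (SD, n = 3 each). It was the only one of the 100 most abundant contigs at 12° to pass the threshold in the step with TMM scaling.

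Next was denovo_contig_12135, 494 bp long, with 659569, 740924, and 415505 reads at 25°, against 3105, 3584, and 2280 reads at 21°. Its mean was 11675 ± 3448 CPM at 25° and 40.6 ± 11.6 CPM at 21° (SD, n = 3 each), a log2 fold change of 8.18 (SE 0.37, edgeR adjusted p = 5.29e-07). At 12°, 15°, and 18° its means were 5.46, 2.96, and 4.69 CPM. Nearly all of its rise in CPM thus fell within the last 4° of the series. By ratio it was already higher at 21°, with a log2 fold change of 2.95 over 12° (edgeR adjusted p = 0.0045). Both denovo_contig_14547 (3100 bp) and denovo_contig_74187 (259 bp) also stood low at 12°, 15°, and 18° and rose steeply at 25°. The first of these averaged 6793 ± 2068 CPM at 25° and 24.0 ± 6.51 CPM at 21° (SD, n = 3 each), a log2 fold change of 8.15 (SE 0.36, edgeR adjusted p = 4.96e-07). The other averaged 6238 ± 1814 CPM at 25° and 20.4 ± 7.70 CPM at 21°, a log2 fold change of 8.26 (SE 0.41, edgeR adjusted p = 6.66e-07).

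The 3 profiles were compared after their values were seen. Over the 15 libraries, the Pearson correlation of log2(CPM + 0.1) was 0.989 between denovo_contig_12135 and denovo_contig_14547. It was 0.995 between denovo_contig_12135 and denovo_contig_74187, over points that share library and depth. All 3 contigs were chosen for their rise at 25°, and the 25° pools are among the points. High correlations were therefore largely built in. The ratio of denovo_contig_12135 to denovo_contig_14547 was 1.64, 1.77, and 1.76 in replicates 1 to 3 at 25° and 1.65, 1.76, and 1.63 at 21°, so that it differed little between these temperatures. At lower levels it was smaller and less steady, with a range over the pools of 0.813 to 0.983 at 12°. The range was 0.218 to 1.02 among pools at 15° and 0.603 to 1.09 among those at 18°. The ratio of denovo_contig_12135 to denovo_contig_74187 was 1.83 to 1.92 at 25°, against 1.85 to 2.34 at 21°, with the highest value in replicate 3. Whether they are pieces of a single transcript or near-identical copies was not tested. In denovo_contig_74187, 90.0% of reads aligned uniquely, and in denovo_contig_12135 nearly all did. Contigs of a single transcript are not independent, and counts of contigs are not counts of genes.

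Another group of leading contigs already had a higher mean at 18° than at 12°, although most of their rise in CPM also fell within the step. In denovo_contig_21086, 415 bp long, there were 544063, 556075, and 419118 reads in replicates 1 to 3 at 25°, against 24765, 32756, and 33489 reads at 21°. Its means were 7.64 CPM at 12°, 7.12 at 15°, 39.1 at 18°, 402.3 at 21°, and 9752 at 25°, and the step alone had a log2 fold change of 4.61 (SE 0.20, edgeR adjusted p = 4.90e-07). The same shape was seen in denovo_contig_67625 (276 bp), with 9217 ± 2199 CPM at 25° and 392.1 ± 34.96 CPM at 21° (SD, n = 3 each), a log2 fold change of 4.56 (SE 0.23, edgeR adjusted p = 6.28e-07). The correlation of this pair over the 15 libraries was 0.999, also computed after their values were seen. Both contigs were chosen for their rise at 25°, so this value too was largely built in. Set against the 12° pools, the log2 fold change of denovo_contig_21086 was 5.77 at 21° and 10.35 at 25°, while that of denovo_contig_12135 was 2.95 at 21° and 11.10 at 25°, comparisons that share the 12° libraries. The longer denovo_contig_3643 (3206 bp) averaged 8699.8 ± 823 CPM at 25° and 1320.0 ± 129 CPM at 21° (SD, n = 3 each), a log2 fold change of 2.73 (SE 0.17, edgeR adjusted p = 2.21e-06). It stood at 112 CPM at 12°, 118 at 15°, and 270.3 at 18°, and it alone of this group passed the threshold at 18° against 12°. Compared per kilobase of contig, the level at 25° was 33395 CPM per kb for denovo_contig_67625, 23633 for denovo_contig_12135, 23498 for denovo_contig_21086, 21119 for denovo_contig_70413, 2714 for denovo_contig_3643, and 2191 for denovo_contig_14547.

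**Figure D3:**
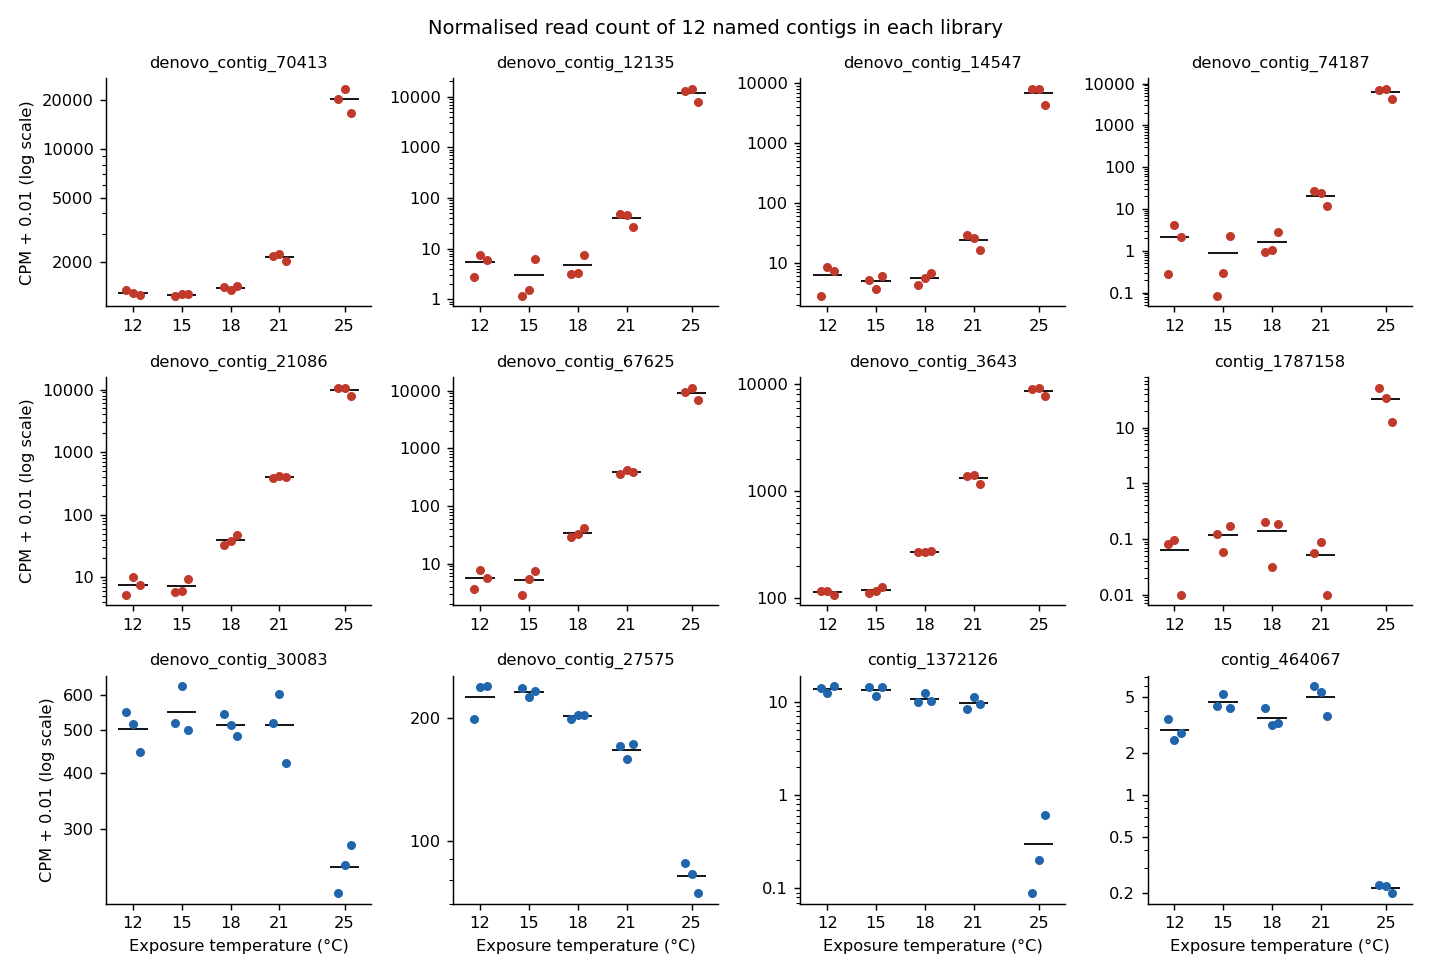
CPM of 12 named contigs in each of the 15 libraries against exposure temperature, on log axes with 0.01 added so that a library with no read can be drawn. Points are the 3 pools of a temperature and lines are their means, red for contigs higher and blue for contigs lower at 25° than at 21°. The 25° pools lie apart from the 21° pools in each panel because the rule for naming required it.

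By ratio rather than by amount, the largest rise was in contig_1787158, 2684 bp long, with 2683, 1795, and 673 reads in replicates 1 to 3 at 25°, against 3, 6, and 0 reads at 21°. Its mean was 33.3 ± 20.01 CPM at 25° and 0.0413 ± 0.0389 CPM at 21° (SD, n = 3 each), a log2 fold change of 9.64 (SE 0.71, edgeR adjusted p = 5.85e-06). The pools at 25° differed widely, and the reads in the 21° group are so few that the size of the fold change is loosely set, at 9.0 on the log2 scale without 21° replicate 3 and at 10.55 without 21° replicate 2. Then came contig_1817553 (242 bp), with 1360, 1630, and 778 reads at 25°, against 4, 10, and 0 reads at 21° (log2 fold change 8.57, SE 0.53, edgeR adjusted p = 2.03e-06). It was 9.71 without 21° replicate 2 and 7.92 without 21° replicate 3. A longer contig, denovo_contig_10094 (2183 bp), had 6185, 4504, and 2248 reads at 25°, against 12, 20, and 33 reads at 21° (log2 fold change 8.20, SE 0.45, edgeR adjusted p = 1.06e-06). In contig_1449946 (386 bp) there were 1016, 523, and 262 reads at 25°, against 1, 2, and 4 reads at 21°. The highest mean of these 4 contigs at 12°, 15°, 18°, or 21° was 0.447 CPM, in denovo_contig_10094, so that they were low at every temperature but 25°. All of their reads aligned uniquely. In contig_1787158 and contig_1449946 no pool at 21° reached 10 reads, so both passed the filter through the 25° pools alone. In contig_1817553 only replicate 2 at 21° reached 10 reads, so it too needed the 25° pools to pass. The filter favours such contigs, so their place in this ranking is a description.

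Replicate 3 at 25° was the lowest of the 3 pools at 25° in every contig named above for a rise by ratio or by amount. The same held in 6692 of the 10063 upregulated contigs, or 66.5%, against 15.1% for replicate 1 and 18.4% for replicate 2. Relative to the 21° mean, the median upregulated contig stood at 1.81, 1.70, and 1.45 on the log2(CPM + 0.1) scale in replicates 1 to 3. Of the downregulated contigs, 51.8% had their highest level at 25° in replicate 3. Among called contigs, the pools at 25° thus differed in both directions, with replicate 3 the nearest to 21°. The same shares over all tested contigs are not given here, and a general offset of replicate 3 was not tested. Without 25° replicate 3, 8626 contigs were upregulated and 4861 downregulated. The part of fish that died or stopped responding in these differences was not tested.

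The falls were smaller in ratio than the rises. At 12° the downregulated contigs had a median of 3.14 CPM, with 16.4% of them under 1 CPM, against a median of 0.939 CPM and 51.5% under 1 CPM among the upregulated contigs. The largest by ratio was contig_1372126, 1835 bp long, with 4, 10, and 32 reads in replicates 1 to 3 at 25°, against 543, 870, and 800 reads at 21°. Its mean was 0.290 ± 0.273 CPM at 25° and 9.73 ± 1.39 CPM at 21° (SD, n = 3 each), a log2 fold change of -5.04 (SE 0.45, edgeR adjusted p = 2.29e-05). Most of its reads at 25° were in replicate 3, and without that pool the log2 fold change was -6.15. At 12°, 15°, and 18° it stood at 13.8, 13.5, and 10.9 CPM. In denovo_contig_43100 (851 bp) there were 3, 4, and 5 reads at 25°, against 150, 168, and 197 reads at 21° (log2 fold change -4.85, SE 0.31, edgeR adjusted p = 2.50e-06). Its level was nearly constant up to 21°, with means of 2.44, 2.70, 2.79, and 2.28 CPM at 12°, 15°, 18°, and 21°. In contig_464067 (1729 bp) there were 11, 11, and 10 reads at 25°, against 384, 420, and 306 reads at 21° (log2 fold change -4.59, SE 0.29, edgeR adjusted p = 2.05e-06). The other contigs named by ratio were contig_1789676, contig_1414766, and contig_1807249, with log2 fold changes of -4.78, -4.62, and -4.50. Without 25° replicate 3 that of contig_1789676 was -5.50. All 6 stayed past the threshold as each pool was left out. In denovo_contig_43100 and contig_1807249 no pool at 25° reached 10 reads, so both passed the filter through the 21° pools alone. In contig_1789676 and contig_1414766 only replicate 3 at 25° reached 10 reads, so these too needed the 21° pools to pass. The place of such contigs in this ranking is a description.

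By amount, the 6 largest falls among called contigs were of 2.02-fold to 2.54-fold. Their means at 12° were 150 to 505 CPM, in the class above 100 CPM. Only contigs past the 2-fold threshold were ranked, so any larger loss in CPM at a smaller fold was left out. The largest was denovo_contig_30083, 1375 bp long, with 10973, 12857, and 14771 reads in replicates 1 to 3 at 25°, against 33442, 46845, and 35307 reads at 21°. Its mean was 246.7 ± 30.8 CPM at 25° and 515.0 ± 90.9 CPM at 21° (SD, n = 3 each), a log2 fold change of -1.05 (SE 0.16, edgeR adjusted p = 9.20e-04). At the lower temperatures it was steady, at 504.7, 549.7, and 515.2 CPM at 12°, 15°, and 18°. It lay so close to the 2-fold threshold that it was no longer past it without 25° replicate 1 (-0.99) or without 21° replicate 2 (-0.92). Of the other 5, denovo_contig_4032 (2014 bp) averaged 135 ± 12.9 CPM at 25° and 344.5 ± 6.84 CPM at 21° (SD, n = 3 each), a log2 fold change of -1.34 (SE 0.12, edgeR adjusted p = 2.71e-05). It and denovo_contig_31006 (-1.10) stayed past the threshold as each pool was left out. The call was lost for denovo_contig_63191 (-1.02) without 25° replicate 1 (-0.95), 21° replicate 1 (-0.94), or 21° replicate 2 (-0.95). It was lost for denovo_contig_27575 (-1.02) without 25° replicate 3 (-0.98), and for denovo_contig_33947 (-1.28) without 25° replicate 2, at an edgeR adjusted p of 0.0109.

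A few contigs were read in 1 of the groups only. Among those called, 22 of the upregulated contigs had no read in any pool at 21°, and 45 of the downregulated contigs had none in any pool at 25°. The share of such contigs over all those tested is not given here. Libraries at 25° were on average the shallower, so these counts are not compared. The clearest case in each direction was picked after the values were seen. In contig_1456663 (398 bp) there were 115, 36, and 15 reads in replicates 1 to 3 at 25° and none at 21°, at least 26.7-fold higher with the floor at 3 reads per library. Replicate 1 held most of these reads, and without it the bound was 12.1-fold. In contig_1425356 (285 bp) there was no read at 25° and there were 53, 68, and 75 reads at 21°, which is at least 15.0-fold lower at the same floor. Its level was 1.16, 0.949, 1.104, and 0.865 CPM at 12°, 15°, 18°, and 21°, so that it was measured at a similar level at every temperature but the highest. The filter itself favours such contigs. It passed 1168 contigs through the 25° pools alone, with no pool at 21° at 10 reads, and 711 of them were called upregulated. Through the 21° pools alone it passed 3606, and 556 of them were called downregulated.

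The median contig of either direction moved little below 21°. Relative to 12°, the median level of the upregulated contigs on the log2(CPM + 0.1) scale was -0.0036 at 15°, 0.05 at 18°, 0.16 at 21°, and 1.88 at 25°. That of the downregulated contigs was 0.01 at 15°, -0.03 at 18°, -0.08 at 21°, and -1.48 at 25°. The 3 pools at 25° lay above all 12 cooler pools in 9666 of the 10063 upregulated contigs, and below all 12 in 5215 of the 5352 downregulated contigs. Over all tested contigs these shares were 16.2% and 15.99%. These are descriptions, since the 25° and 21° pools chose the contigs.

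**Figure D4:**
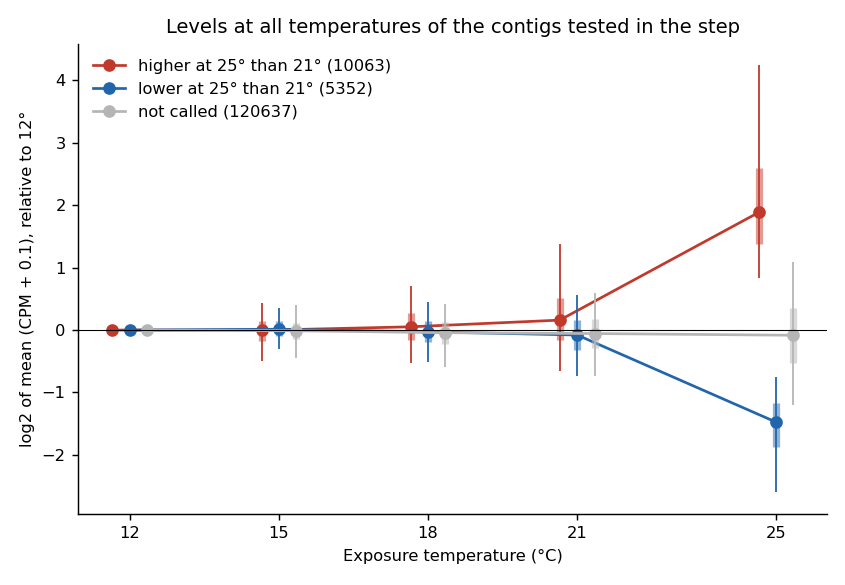
Median level of the contigs higher, lower, and not called at 25° against 21°, by exposure temperature, as log2 of mean CPM + 0.1 relative to 12°. Thick bars span the middle 50% of contigs and thin bars the 5th to 95th percentile, and the median of the upregulated contigs is 0.16 at 21° and 1.88 at 25°.

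The upregulated contigs were split by where their 21° mean stood against the 9 pools at 12°, 15°, and 18°. In 6488 it lay within the range of those pools, in 3131 it lay above, and in 444 it lay below. The shares over all tested contigs were 79.6% within, 11.5% above, and 8.90% below, against 64.5%, 31.1%, and 4.41% of the upregulated contigs. Contigs already above the cooler range at 21° had a median log2 fold change of 1.79 in the step, and those within the range 1.91. Rises of more than 10-fold made up 10.1% of those above the range and 14.7% of those within it. Of the 444 below, 408 had a 25° mean above the cooler range, so that their level was lowest at 21° and highest at 25°. The downregulated contigs had a 21° mean within the cooler range in 3846, below it in 1084, and above it in 422, and 391 of the last had a 25° mean below the range. Of all upregulated contigs, 4.05% thus went from below to above the cooler range, and 7.31% of the downregulated contigs from above to below it. Over all tested contigs these shares were 0.739% and 1.08%. The 25° mean lay within the cooler range in 89 upregulated (0.884%) and 64 downregulated contigs (1.20%), against 42.8% of all tested contigs. The 21° pools enter both the split and the step, so that chance spread in them moves contigs between these classes.

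A further list, chosen with earlier results of these data known, comes from the comparison of 18° with 12°, which shares no pool with the step. There, 42 of 145790 contigs were upregulated at the same threshold, or 0.0288%. Of these 42, 34 were upregulated again in the step, against 7.4% of all contigs tested in it. Their median log2 fold change in the step was 1.60 (range -0.22 to 3.69), against 0.0020 over all tested contigs. With library totals, of the same 42 contigs 27 were upregulated in the step and their median was 1.27, against -0.33 over all tested contigs. Among the 42, 19 changed more than 4-fold in the step and 11 more than 8-fold. Together the 42 held 3.44%, 3.40%, and 2.91% of the reads in replicates 1 to 3 at 25°, against 0.616%, 0.632%, and 0.567% at 21°. They held 0.0376% to 0.0422% at 12°, 0.0495% to 0.0520% at 15°, and 0.148% to 0.154% at 18°. In 3 of the 42, fewer than 50% of the reads aligned uniquely, and their values are uncertain.

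The 42 contigs did not all behave alike in the step. The largest change was in contig_682737 (160 bp), with 25689, 22844, and 17680 reads in replicates 1 to 3 at 25°, against 2003, 2459, and 3067 reads at 21° (log2 fold change 3.69, SE 0.18, edgeR adjusted p = 6.23e-07). Close behind, denovo_contig_72211 (635 bp) averaged 1291 ± 93.9 CPM at 25° and 101.7 ± 13.7 CPM at 21° (SD, n = 3 each), a log2 fold change of 3.67 (SE 0.16, edgeR adjusted p = 4.96e-07). At the other end stood denovo_contig_56665 (958 bp), with 513, 436, and 558 reads at 25°, against 749, 797, and 1014 reads at 21°. It averaged 9.64 ± 1.06 CPM at 25° and 11.3 ± 0.959 CPM at 21°, a log2 fold change of -0.22 (edgeR adjusted p = 0.280), after means of 2.61, 3.94, and 8.25 CPM at 12°, 15°, and 18°. In contig_1393912 (874 bp) the log2 fold change was -0.044 (edgeR adjusted p = 0.880), with 5.88 ± 1.13 CPM at 25° and 6.10 ± 0.394 CPM at 21°. Its direction turned as pools were left out (-0.24 to 0.013). A change beyond the spread between pools was not detected for these contigs. Of the 8 that were not called, 4 had a fold of less than 2 with an adjusted p-value under 0.01.

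**Figure D5:**
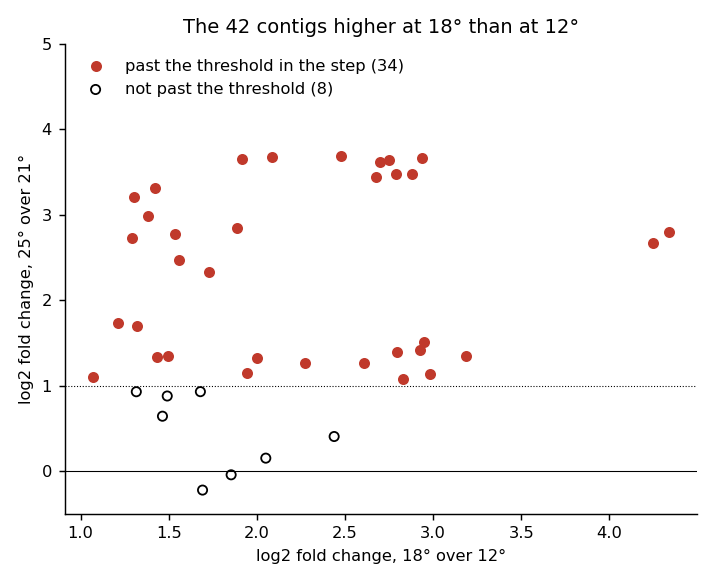
Log2 fold change at 18° over 12° against log2 fold change at 25° over 21° for the 42 contigs upregulated at 18°, on axes that share no library. Filled points are the 34 past the threshold in the step, open points the 8 that were not, and the dotted line marks a 2-fold rise.

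A wider list, the 246 contigs upregulated at 18° at an adjusted p-value below 0.10 (0.169% of those tested there), had 132 upregulated and 5 downregulated contigs in the step. Its median log2 fold change was 1.20, and of all contigs tested in the step 7.4% were upregulated and 3.93% downregulated. At the same looser threshold 79 contigs (0.0542%) were downregulated at 18°. Of these, 62 were tested in the step, where 10 were downregulated and 5 upregulated, with a median of -0.44.

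How often a contig was called differed with its level in the 12° control pools, which are not part of the step. Contigs under 0.1 CPM at 12° numbered 3216, of which 867 were upregulated (27.0%) and 2 downregulated. A contig this low at 12° could enter the test only by being higher at 21° or 25°. Without those that passed the filter through the 25° pools alone, 375 of 2465 were upregulated (15.2%). Contigs that passed mainly through the 25° pools remain among these. From 0.1 to 1 CPM, 7.60% were upregulated and 1.55% downregulated, and from 1 to 10 CPM 7.14% and 6.19%. Contigs near the lower edge of the class from 0.1 to 1 CPM were also near the filter and had little room to be called lower. The part of the filter in these shares was not tested. From 10 to 100 CPM the shares were 4.54% upregulated and 5.15% downregulated. Above 100 CPM, 27 of 796 contigs were upregulated (3.39%) and 16 downregulated (2.01%). With library totals, the shares were 4.22% upregulated and 14.3% downregulated from 1 to 10 CPM, and 2.26% and 5.15% above 100 CPM. In both classes the order of rises and falls thus turned with the scaling. From 10 to 100 CPM the shares with library totals were 2.59% and 13.0%, so that falls led under both scalings.

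The most abundant contigs of the gill moved by less than 2-fold, with 1 exception. Of the 100 most abundant contigs at 12°, 99 lay within 2-fold in the step, with a median log2 fold change of 0.04 and a lowest value of -0.99. With library totals, 3 of them were past the threshold as lower and the median was -0.29. As a group they held 11.0% ± 0.48 of the reads at 25° and 11.4% ± 0.44 at 21° (SD, n = 3 each). These shares include the exception, denovo_contig_70413. It alone held 1.72%, 1.88%, and 1.41% of the reads in replicates 1 to 3 at 25°, against 0.224%, 0.230%, and 0.219% at 21°. The near-equal group shares therefore do not show that the other 99 kept their share. The contig with the highest mean over the 6 libraries, denovo_contig_28702 (1820 bp), had 564409, 725461, and 637927 reads in replicates 1 to 3 at 25°, against 660380, 889114, and 815325 reads at 21°. It averaged 12342 ± 1529 CPM at 25° and 10485 ± 878 CPM at 21°, a log2 fold change of 0.24 (SE 0.17, edgeR adjusted p = 0.326), and its sign turned with library totals (-0.090). A change in it was not detected beyond the spread between pools. Per kilobase, its level at 25° was 6781 CPM per kb, below that of 4 of the contigs named above for a rise in amount, whereas at 21° its 5761 CPM per kb exceeded the 2261 of denovo_contig_70413.

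The share of calls also differed with contig length and uniqueness. Upregulated contigs made up 6.11% of those under 300 bp, 7.22% from 300 to under 1000 bp, 8.33% from 1000 to under 3000 bp, and 7.32% at 3000 bp and over. Downregulated contigs made up 2.30%, 3.40%, 5.34%, and 5.60% of the same classes. Longer contigs collect more reads and give the test more to work with, and the part of this in the shares was not tested. Of the 1562 tested contigs with fewer than 50% unique reads, 83 were upregulated and 19 downregulated. These were 5.31% and 1.22%, against 7.4% and 3.93% of all tested contigs. Among contigs with the denovo name prefix, 7.64% were upregulated and 4.54% downregulated, against 7.27% and 3.62% among the others.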

How the data were processed

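Gill RNA of 15 libraries, 3 pools of 11 fish at each of 5 temperatures, was sequenced. The authors quality-filtered reads, trimmed them with Cutadapt, pooled them without duplicates for de novo assembly in CLC Genome Workbench, and aligned each library back to the contigs. They deposited raw whole-number counts for every contig, once for all aligned reads and once for unique ones. No genome build applies. Of the 98 columns of the table, 31 were used. The 16 columns of the authors' own comparisons (fold change, proportion difference, test statistic, and p-value of each temperature against 12°) were not used, nor were repeated values and means. The number of columns from other samples was 0. Deposited names have 2 prefixes, and 1859 contig numbers occur under both.

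Labels gave each library its temperature and replicate. The 25° and 21° libraries were fitted with edgeR 4.0.16 (R 4.3.3), with TMM scaling, glmQLFit, and glmQLFTest on total reads. Calls required a fold above 2 and, over all 136052 contigs, a Benjamini-Hochberg adjusted p-value under 0.01. The SE was taken as log2 fold change over the root of F. CPM used TMM factors over the 15 libraries. DESeq2 1.42.0 was an alternative. Other steps used Python 3.11.15 and scipy 1.17.1. The fit was also run on simulated counts in which few contigs changed, as many up as down. That setting does not test the balance of rises and falls found here.

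The rule for naming took, among called contigs whose pools did not overlap, the 6 largest rises and 6 largest falls by ratio of mean CPM (floor of 3 reads per library) and by difference, the contig highest over the 6 libraries, and the 2 largest and 2 smallest changes among contigs upregulated at 18°. The members, lists, and rules were chosen with earlier results of these data known.

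Replicates were run on consecutive days, and labels were assumed to number the days. Deviations from the group mean, over 76531 contigs above 1 CPM, correlated between libraries of the same number at -0.35, 0.48, and -0.29 for replicates 1, 2, and 3. No pair of replicates within a group agreed within sampling noise. Alternatives were other scalings, filters, thresholds, and samples, a block for replicate number, leaving out libraries in turn, unique reads, and longer contigs.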

Additional observations from a re-analysis of the deposited data

How the results depend on the processing

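Against 10063 upregulated and 5352 downregulated contigs (65.3% up, median log2 fold change 0.0020), library totals gave 6574 and 12694 (34.1%, median -0.33), all 15 libraries in 1 fit 8312 down (57.3% up), an adjusted p-value below 0.10 15852 and 10836 (59.4%), and a fold above 4 4507 and 1265 (78.1%). Apart from the libraries left out below, counts were within 1.5 times under the other alternatives. The upregulated share was 63.8% with the DESeq2 Wald test, 61.7% without a filter, and 62.0% with contigs of at least 300 bp. With the replicate number as a block, 8414 contigs were upregulated and 4019 downregulated (67.7% up), and no named contig changed its call. Only replicate 2 at 25° correlated best with its own number at 21°. The median log2 fold change was -0.043 without a filter, -0.027 with at least 10 reads in 3 of 15 libraries, and -0.029 with contigs of at least 300 bp.

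As each library was left out, the upregulated contigs numbered 7136 to 10193, the downregulated 3030 (without 21° replicate 1) to 5032, the upregulated share 64.0% to 71.0%, and the median log2 fold change -0.047 to 0.017, in fits with fewer pools. The share of the 10 leading contigs, the number holding 50% of reads, and the numbers with 1 and with 10 reads kept their direction as libraries were left out. The last of these, the bounds of contigs without reads in a group, and other scalings of the abundance and uniqueness classes were added after seeing the data. The list from 18° had 132 of 246 members upregulated in the step with its looser threshold, against 34 of 42. Of all contigs tested in the step, 7.4% were upregulated. The sign of denovo_contig_28702 turned with library totals (-0.090), and that of contig_1393912 as libraries were left out (-0.24 to 0.013). Ratios are least certain where a group had few reads.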
